A study of Saccharomyces cerevisiae with 8 samples.

Results

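The genes described here are the 8 yeast genes for the last steps of alcoholic fermentation: the pyruvate decarboxylase genes PDC1, PDC5 and PDC6 and the alcohol dehydrogenase genes ADH1, ADH2, ADH3, ADH4 and ADH5. They were chosen by name from 6002 nuclear protein-coding genes, and binding of Rap1 was read in the 500 bp before each start codon, with 1000 bp as a check. The study asked where Rap1, a DNA-binding protein of promoters and telomeres, sits in young and in chronologically aged cells. Rap1 was immunoprecipitated from cross-linked Saccharomyces cerevisiae of strain JDY86 that had been kept in YPD, a rich glucose medium, for 16 h or 14 d, with 2 biological repeats at each time. According to the methods of the study, JDY86 is the MATa parent of a histone mutant library. It is auxotrophic for several nutrients, carries an MFA1 promoter-HIS3 insertion at CAN1, has lost the hht1-hhf1 histone gene pair to NatMX4, and bears at hht2-hhf2 the URA3-marked H3 and H4 cassette through which the library's histone mutants were made. All 4 Rap1 libraries share this background. The sample labels do not state whether the H3 and H4 cassette was wild type in these cultures. The antibody was polyclonal, and no tagged or Rap1-depleted strain served as a control.

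Pyruvate decarboxylase turns the end product of glycolysis into acetaldehyde, and alcohol dehydrogenase reduces acetaldehyde to ethanol or, in the reverse direction, oxidises ethanol when glucose is gone. PDC1 and ADH1 encode the main enzymes of fermenting cells. Rap1 is known as an activator of these genes and of other glycolytic genes, together with its partner Gcr1. The other isozymes are used under other conditions: PDC5 when PDC1 is missing or thiamine is short, PDC6 under sulfur limitation, ADH2 for growth on ethanol under the activator Adr1, ADH3 inside mitochondria, and ADH4 under zinc limitation. ADH5 encodes a minor isozyme.

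The data were the peak lists that the authors called in each Rap1 library against its input. A peak has a summit, the position of strongest enrichment, and a fold enrichment. The fold is the ratio of the fragment pileup at the summit to the local background, with 1 added to each. The added 1 lowers the fold most where the background is small, so folds are not alike between libraries of unlike depth. The lists held 84 and 480 nuclear peaks in repeats 1 and 2 at 16 h, and 95 and 564 at 14 d. The genome background pileup, used as a relative depth, was 0.414 and 8.87 fragments at 16 h and 1.71 and 11.7 at 14 d, so that both repeat 1 libraries were far shallower than both repeat 2 libraries. No p-value between the times can fall below 0.333 with 2 libraries against 2, and missing peaks in repeat 1 are set beside the depth below.

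Rap1 peaks lay before PDC1, PDC6, ADH1 and ADH3, and none was listed within 1000 bp of the start codons of PDC5, ADH2, ADH4 and ADH5 in any library. In the repeat 2 libraries, 4 of the 8 promoters overlapped a peak at 16 h (PDC1, PDC6, ADH1 and ADH3) and 3 at 14 d (PDC1, ADH1 and ADH3). Of all 6002 genes, 9.18% had a promoter peak in 16 h repeat 2 and 11.4% in 14 d repeat 2. Neither repeat 1 list had a peak in the 500 bp before any of the 8 genes, where the share of all genes was 1.2% at 16 h and 1.68% at 14 d. With 1000 bp, the 16 h repeat 1 list added 1 gene, ADH1, at a share of 1.73% of all genes, and the other 3 counts did not change (shares of 11.6%, 2.33% and 13.7%). Averaged over repeats, 2 ± 2.83 (SD, n = 2) of the 8 promoters had a peak in young cells. After 14 d the average was 1.5 ± 2.12 (SD, n = 2), lower by less than the spread between repeats (difference -0.5, p = 1 by a two-sided exact permutation test). It was 0 in repeat 1 and -1 in repeat 2, the latter through PDC6 alone.

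**Figure D1:**
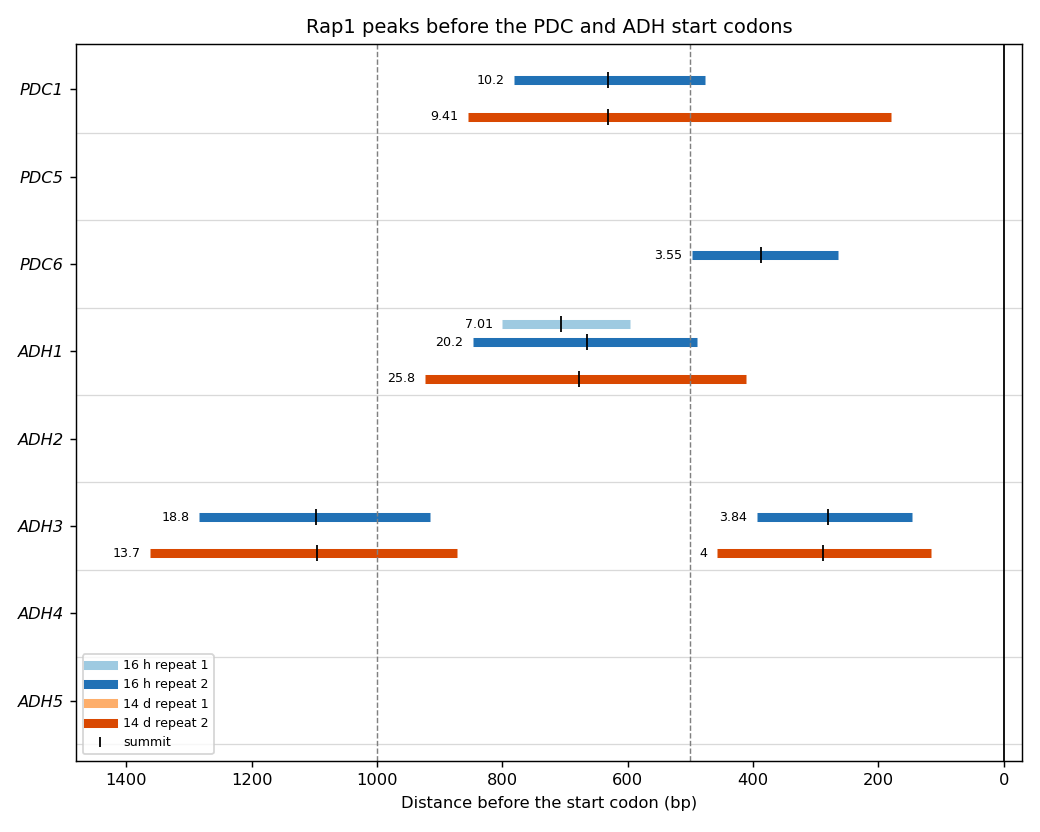
Extent of each Rap1 peak within 1000 bp of a start codon, in bp before the start codon, for the 8 genes (rows) and the 4 Rap1 libraries (colours). Black ticks are summits, numbers are the fold enrichment, and dashed lines stand at 500 and 1000 bp; the PDC1 and ADH1 summits lie between 631 and 706 bp, and the rows of PDC5, ADH2, ADH4 and ADH5 are empty.

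Several of these peaks touched the 500 bp window only at its far edge. The PDC1 peak of 16 h repeat 2 overlapped it by 25 bp and the ADH1 peak of the same library by 11 bp, while the ADH1 peak of 16 h repeat 1 missed it by 96 bp. When the summit itself had to lie within 500 bp, 2 genes remained in 16 h repeat 2 (PDC6 and ADH3) and 1 in 14 d repeat 2 (ADH3). Of all 6002 genes, 643 had a summit within 1000 bp in 16 h repeat 2 and 727 in 14 d repeat 2. For 34.4% and 35.9% of these genes it lay beyond 500 bp, so the share of all genes was also smaller under this rule. The counts of 2 and 1 genes therefore cannot be set against the shares given above for overlapping peaks.

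PDC1 (YLR044C), the main pyruvate decarboxylase gene, lies on chromosome XII at 232390 to 234081 on the minus strand, 955 bp from the end of the tandem gene STU2. Its peak spanned 234557 to 234863 in 16 h repeat 2 and 234261 to 234936 in 14 d repeat 2. The summits stood 632 and 631 bp before the start codon. PDC1 had a fold enrichment of 10.2 at 16 h and of 9.41 at 14 d in these lists, and no PDC1 peak was listed in either repeat 1. These folds were close to the middle of each list, at rank 191 of 480 and 253 of 564, where rank 1 is the highest fold. The pileup at the summit was 100 and 159 fragments. The 14 d peak was 676 bp wide and reached to 180 bp from the start codon, against a width of 307 bp at 16 h. Of the 431 peaks of 16 h repeat 2 that overlapped a peak of 14 d repeat 2, the median gain in width was 132 bp, and 89.1% gained less than the 369 bp at PDC1.

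PDC6 (YGR087C), the sulfur-limitation isozyme, lies on chromosome VII at 651290 to 652981 on the minus strand, with the divergent catalase gene CTT1 1652 bp away. A peak was listed in 16 h repeat 2 alone, spanning 653245 to 653479. Its summit was 387 bp upstream of PDC6. It was weak, with a fold of 3.55, a pileup of 34 fragments and rank 413 of 480. At an equal enrichment over the genome background, the same summit would have held 45.0 fragments in 14 d repeat 2, where the smallest pileup listed was 29. Of the 68 peaks of 16 h repeat 2 with a fold no higher than that of PDC6, 48 (70.6%) overlapped a peak of 14 d repeat 2, against 89.8% of all 480. In 14 d repeat 2 the nearest summit to PDC6 was 3831 bp downstream of its start codon, before the ribosomal protein gene RPL11B.

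PDC5 (YLR134W), the reserve isozyme on chromosome XII at 410723 to 412414 on the plus strand, had no peak near its promoter. Its start codon is 529 bp from the end of the tandem gene CKI1. The nearest summits were 13601, 13595 and 13589 bp downstream in 16 h repeat 2, 14 d repeat 1 and 14 d repeat 2. In 16 h repeat 1 the nearest was 43749 bp downstream.

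ADH1 (YOL086C), the main fermentative alcohol dehydrogenase gene, lies on chromosome XV at 159548 to 160594 on the minus strand, 1078 bp from the end of the tandem open reading frame YOL085C. It was the member listed most often, in 3 of the 4 libraries. Its peak spanned 161190 to 161394 in 16 h repeat 1, 161084 to 161441 in 16 h repeat 2 and 161005 to 161518 in 14 d repeat 2. The summits stood 706, 665 and 677 bp before the start codon, a range of 41 bp. The fold enrichment was 7.01 in 16 h repeat 1, 20.2 in 16 h repeat 2 and 25.8 in 14 d repeat 2, at ranks 44 of 84, 81 of 480 and 83 of 564. Measured instead as the log2 of the summit pileup over the genome background, the enrichment was 4.73, 4.86 and 4.80 in these libraries. The 3 libraries thus lay close together on that scale, whereas the fold was lowest in the shallowest library. In repeat 2, 16.7% of the 551 genes with a promoter peak at 16 h and 16.8% of the 686 at 14 d had a higher fold than ADH1. The peak also reached into the 1000 bp before PHM7, the next divergent gene, and into no other gene's 500 bp.

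ADH3 (YMR083W), the mitochondrial isozyme, lies on chromosome XIII at 434788 to 435915 on the plus strand, after a gap of 2662 bp to the divergent open reading frame YMR082C. It was the only member with 2 peaks in a list. The proximal summit stood 280 bp before the start codon in 16 h repeat 2 and 289 bp in 14 d repeat 2. The proximal folds were 3.84 and 4.00, low in both lists at ranks 399 of 480 and 432 of 564. The distal summit stood 1097 and 1096 bp before the start codon, just outside the longer window, which its peak entered by its near edge at 916 and 873 bp. The distal folds were 18.8 and 13.7, at ranks 91 and 197. The distal summit exceeded the proximal one by 2.29 on the log2 fold scale in 16 h repeat 2 (95% interval 1.86 to 2.79) and by 1.77 in 14 d repeat 2 (1.41 to 2.17). These intervals are exact, from the 2 summit pileups within a library, and cover counting error only. Neither summit lay within 1000 bp of another start codon. Neither repeat 1 list held a peak at either place.

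ADH2 (YMR303C), the ethanol-oxidising isozyme, is on chromosome XIII at 873291 to 874337, 649 bp from the divergent gene UBP15. The nearest summits were 15246, 15229 and 15238 bp downstream of its start codon in 16 h repeat 1, 16 h repeat 2 and 14 d repeat 2, before GSR1, and 100334 bp away in 14 d repeat 1. ADH5 (YBR145W) is on chromosome II at 533762 to 534817, 212 bp from the divergent open reading frame YBR144C. The nearest summits to ADH5 in the repeat 2 lists were 21603 and 20865 bp downstream, with folds of only 2.65 and 1.70, the latter being the lowest of its list. A promoter summit at the genome background would have needed a fold of about 2.53 in 16 h repeat 2 and 2.36 in 14 d repeat 2 to reach the smallest pileups listed there, 24 and 29 fragments. Weaker binding at these genes was not detectable at this depth.

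ADH4 (YGL256W), the zinc-limitation isozyme, is the member closest to a telomere, 15158 bp from the left end of chromosome VII at 15159 to 16307. Both repeat 2 lists held 2 peaks between the gene and the chromosome end, and neither repeat 1 list held any. The nearer summit stood 4816 bp before the start codon at 16 h and 4828 bp at 14 d, with folds of 9.12 and 4.01, and lay within 1000 bp of the start codon of VEL1. The other was at the chromosome end itself, with folds of 7.50 and 5.42. The promoter of ADH4, which is shared across 1001 bp with the divergent gene MNT2, held none.

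**Figure D2:**
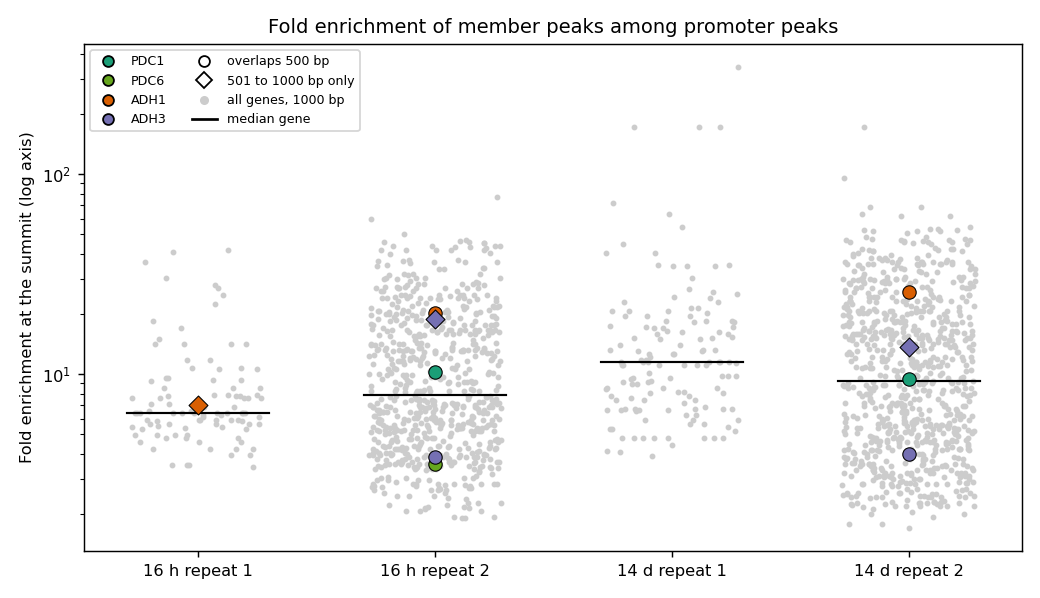
Fold enrichment at the summit (log axis) in each Rap1 library, for the peaks of PDC1, PDC6, ADH1 and ADH3 (coloured, with diamonds for peaks that reach 1000 bp but not 500 bp) and for the strongest peak within 1000 bp of every gene that has one (grey, with the median gene as a black line). ADH1 stands at 20.2 and 25.8 in the repeat 2 libraries, PDC1 at 10.2 and 9.41, and the proximal ADH3 peak at 3.84 and 4.00.

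Isozymes were compared within a library, where they share the depth. There were 13 pairs within the 2 enzyme families, and 2 of them had a promoter peak for both genes in the same list. ADH1 exceeded ADH3 by 2.40 on the log2 fold scale in 16 h repeat 2 (95% interval 1.97 to 2.90) and by 2.69 in 14 d repeat 2 (2.34 to 3.08). These are fold ratios of 5.27 and 6.44. The mean difference was 2.54 ± 0.20 (SD, n = 2 libraries), in the same direction in both. These 2 libraries are of different times, so this SD is not a spread between repeats of a time. The exact sign-flip permutation test over 2 libraries gave p = 0.5, the smallest it can give, and this was the only pair that could be tested. With 1000 bp the distal ADH3 peak took the place of the proximal one, and the difference was 0.11 in 16 h repeat 2 (-0.16 to 0.37) and 0.91 in 14 d repeat 2 (0.67 to 1.16). Whether ADH1 stood far above ADH3 therefore depended on which ADH3 peak was counted. PDC1 exceeded PDC6 by 1.53 in 16 h repeat 2 (0.98 to 2.16), a fold ratio of 2.89, in the single library that listed both. The other pairs include a gene without a peak, for which no fold exists.

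Within repeat 2, the fold at the members was compared between 14 d and 16 h. The 431 overlapping peak pairs had a median difference of 0.30 in log2 fold, from -0.10 at the lower quartile to 0.68 at the upper one. ADH1 differed by 0.35 (95% interval 0.11 to 0.59, counting error only), which is 0.05 above that median. PDC1 differed by -0.12 (-0.49 to 0.26), 0.42 below the median on this scale. The proximal ADH3 peak differed by 0.06 (-0.47 to 0.62). The distal ADH3 peak differed by -0.46 (-0.72 to -0.19), and 9.05% of the pairs had a lower difference. Each of these values rests on 1 library per time, so that no spread between repeats and no test can be given.

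The direction at ADH1 and PDC1 changed with the scale. As log2 enrichment over the genome background, where the pairs had a median difference of 0.13, ADH1 differed by -0.056 (-0.30 to 0.18) and PDC1 by 0.27 (-0.10 to 0.64). The distal ADH3 peak differed by -0.31 (-0.57 to -0.04) and kept its sign, at 0.43 below the median of the pairs. On this scale 23.2% of the pairs had a lower difference. The local background at PDC1 was 8.87 fragments in 16 h repeat 2, equal to the genome background, and 16.0 in 14 d repeat 2, against a genome background of 11.7 there. At ADH1 it was 11.8 and 11.7.

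**Figure D3:**
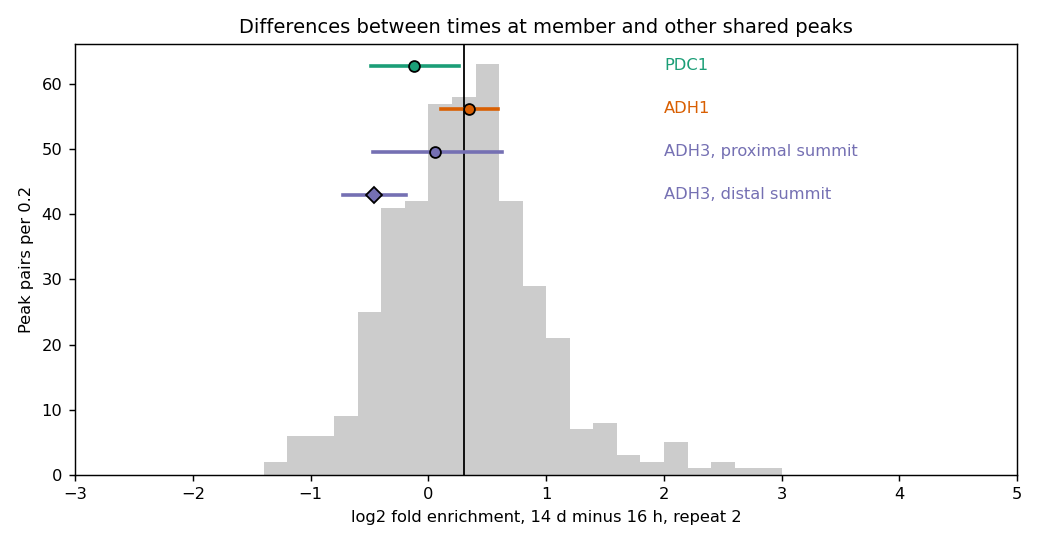
Difference in log2 fold enrichment between 14 d and 16 h in repeat 2 (x axis) for 431 overlapping peak pairs (grey histogram, pairs per 0.2, median as a black line) and for the member peaks (points, with 95% counting intervals as bars). ADH1 lies close to the median of 0.30, and the distal ADH3 summit lies at -0.46.

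Summit positions were compared between the times in repeat 2, with 1 library per time. For scale, the ADH1 summit stood at 706 bp in repeat 1 and 665 bp in repeat 2 at 16 h. PDC1 and the distal ADH3 summit moved by 1 bp each, the proximal ADH3 summit by 9 bp and ADH1 by 12 bp, against a median of 8 bp over all pairs (quartiles 3 and 17 bp). The summits of PDC1 and ADH1 stood farther from the start codon than those of most genes. Among the 643 genes with a summit within 1000 bp in 16 h repeat 2, the median distance was 400 bp, and 22.2% of genes had a longer distance than PDC1 and 18.0% a longer one than ADH1. In 14 d repeat 2 the median was 412 bp over 727 genes, with 23.4% and 17.5% beyond PDC1 and ADH1. PDC6 and the proximal ADH3 summit were near or inside the median, with 52.1% and 71.5% of genes at longer distances in 16 h repeat 2.

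To set the missing repeat 1 peaks beside depth, the pileup of each repeat 2 summit was scaled to the genome background of repeat 1 at the same time. At 16 h this gave 12.0 fragments at ADH1, where the list has 11. It gave 4.67 at PDC1, 2.24 at the proximal ADH3 summit and 1.59 at PDC6, below the smallest pileup of 5 listed there, and 10.7 at the distal ADH3 summit, which was not listed. At 14 d it gave 47.6 fragments at ADH1, 35.6 at the distal ADH3 summit, 23.1 at PDC1 and 11.1 at the proximal ADH3 summit. The smallest pileup listed in 14 d repeat 1 was 10, yet none of the 4 was listed. Other strong peaks were also missing there: of the 106 peaks of 14 d repeat 2 with a pileup at least that of ADH1, 66 (62.3%) overlapped a peak of 14 d repeat 1. The same share was 51.3% for peaks at least as high as the distal ADH3 summit, 36.2% for PDC1 and 24.4% for the proximal ADH3 summit. At 16 h it was 55.8% for ADH1 (53 of 95) and 53.5% for the distal ADH3 summit. Over all peaks, 403 of the 564 in 14 d repeat 2 had a scaled pileup of at least the smallest one listed in repeat 1, and 92 of the 564 overlapped a peak there. At 16 h these numbers were 222 and 83 of 480. The smallest listed pileup is the lowest case, and the median listed pileup in repeat 1 was 11 at 16 h and 37 at 14 d. The lists also ended at different significance, with a smallest −log10 q of 3.33 in 14 d repeat 1 and 1.86 in 14 d repeat 2. Why peaks were missing from repeat 1 was not tested. All 4 lists held a peak before ATG19, on the far side of PHM7, with folds of 10.6 and 36.0 in repeats 1 and 2 at 16 h and 4.43 and 45.5 at 14 d. Its summit stood 556, 527 and 521 bp before ATG19 in the lists other than 14 d repeat 1, and 271 bp in that list, so that it may not be the same peak there.

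**Figure D4:**
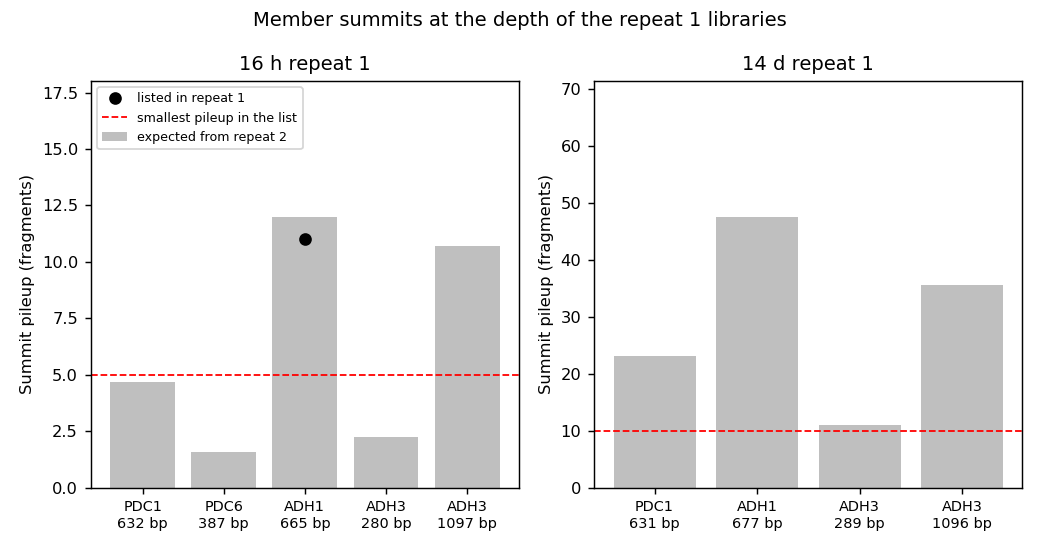
Summit pileup in fragments for the member summits in the repeat 1 libraries (left 16 h, right 14 d). Grey bars are the repeat 2 pileups scaled by genome background, the point is the pileup listed in repeat 1 and the red dashed line is the smallest pileup in that list; ADH1 at 16 h is the only summit with a listed value, 11 against 12.0 scaled.

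Among other genes of the pathway, the enzymes that lead to pyruvate were listed most often. Of 17 glycolytic genes, 12 (70.6%) had a peak in the 500 bp in 16 h repeat 2 and 10 (58.8%) in 14 d repeat 2, 9 of them in both, and 1 in each repeat 1 list. Of 18 other genes of pyruvate, acetaldehyde and alcohol metabolism, 3 and 4 did in the repeat 2 lists (16.7% and 22.2%) and none in repeat 1. Of 11 regulators of the members, 2 did at 16 h (GCR1 and RAP1) and 1 at 14 d (GCR1). The 8 fermentation genes, at 50% and 37.5%, lay between these groups, all read against 9.18% and 11.4% of all genes. The groups are small and were not tested against each other.

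The pathway genes with the highest mean log2 fold over the lists that hold them were PYK2, ENO1, GLK1, RAP1 and TDH3. These means rest on 1 list for PYK2 and RAP1, 2 for ENO1 and 3 for GLK1 and TDH3, and the lists differ in depth, so that they give no order among the genes. ENO1, an enolase gene, had folds of 27.2 and 20.2 in repeat 2 at 16 h and 14 d, on both sides of the 20.2 and 25.8 of ADH1. TDH3, for glyceraldehyde-3-phosphate dehydrogenase, had 12.7 and 11.7, and a fold of 5.66 in 16 h repeat 1. GLK1, a glucokinase gene, had 7.27 and 31.8, and 11.1 in 14 d repeat 1. PYK2, the minor pyruvate kinase gene, was at 39.4, with a peak in the 500 bp in 14 d repeat 2 alone and its summit 834 bp from the start codon. With 1000 bp, PYK2 also had folds of 18.2 in 16 h repeat 2 and 20.3 in 14 d repeat 1, with summits at 813 and 835 bp. RAP1 itself was at 11.3 in 16 h repeat 2 alone.

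The genes with the most similar values were sought among 365 genes with a promoter peak in both repeat 2 lists and neither repeat 1 list, by the Euclidean distance of the log2 folds over those 2 libraries. Nearest to ADH1 were RPS11B (distance 0.13), RPS12 (0.14) and RPS6B (0.15), which encode proteins of the small ribosomal subunit. Nearest to PDC1 were RPL7A (0.14), DOT6 (0.17) and CCW14 (0.22). Nearest to the proximal ADH3 peak were FBA1 (0.07), the aldolase gene of glycolysis, YJL107C (0.13), and ADE8 and SIZ1 (0.14 each), which share 1 peak and are therefore tied. With 2 libraries, these distances describe levels and not a course over time.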

How the data were processed

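Rap1 ChIP-seq was analysed from 4 peak lists, 2 biological repeats at 16 h and 2 at 14 d. The matched input of each library was used by the authors in peak calling and was not analysed here. Per the methods, paired-end reads were trimmed (Trim Galore) and mapped to release 64 of the genome (R64) by Bowtie2, and MACS2 was run on each library; versions and settings are not given in the sources used here. In the deposited lists, fold enrichment is a ratio: summit pileup plus 1, divided by local background plus 1. The deposited −log10 p and −log10 q are those of MACS2, and the deposited score is 10 times the −log10 q, truncated. Positions were counted from 1. The peak names of 14 d repeat 2 call it a merge, so runs may have been pooled there.

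Start codons were taken from RefSeq's table for that release (6002 nuclear protein-coding genes, strand read from the systematic name). All 8 genes matched by symbol. A promoter peak overlapped the 500 bp before the start codon by at least 1 bp, and the peak with the highest fold was used where there were several. Summit pileup and background were solved from fold and −log10 p as a Poisson tail, within a relative tolerance of 0.0001 for 100% of peaks, assuming that MACS2 did not scale the ChIP pileup. The lowest background of a list served as the genome background, a relative depth, since read totals were not used here. These steps were tested on simulated data. Intervals are exact 95% conditional binomial intervals of 2 pileups, with the backgrounds taken as known, and cover counting error only.

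Times were compared by a two-sided exact permutation test over the 4 libraries and isozymes by an exact sign-flip permutation test over libraries, with Benjamini-Hochberg adjustment over the 1 pair tested (Python 3.11.15, scipy 1.17.1). No member had a promoter peak in all 4 lists, so that the planned test per member could not be made. All 8 members were named. Of the 17 glycolytic genes, 18 other enzymes and 11 regulators, at most 5 were named, by mean log2 fold, and the 3 most similar genes per member. The members, gene lists and tests were chosen with earlier results of these data known. The alternatives were a 1000 bp promoter, the summit within 500 bp, the 84 highest peaks per list, a minimum −log10 q of 5, enrichment over the genome background, ranks, a replicate block and leaving out each library. The planned search for the Rap1 motif, and its alternative with up to 2 mismatches, needs promoter sequence, which was not used here.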

Additional observations from a re-analysis of the deposited data

How the results depend on the processing

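The difference in the number of members with a promoter peak (-0.5) was -1 with a 1000 bp promoter, and -0.5 with the summit within 500 bp and with a −log10 q of at least 5. It was 0 with the top 84 peaks of each list, where ADH1 alone remained, in both repeat 2 lists. The share of all genes is not given for this setting, so this count cannot be set against it. With the repeat number as a replicate block it was -0.5 (exact sign-flip permutation, p = 1). With 2 pairs of libraries it was not shown that the numbers pair the cultures. Leaving out each library in turn gave -2.5 to 1.5, and the sign turned without 16 h repeat 2 (1.5) and without 14 d repeat 1 (1). In repeats 1 and 2, the lists held 0 and 4 members at 16 h and 0 and 3 at 14 d. The sign thus followed which of these lists remained at a time. The repeat 2 libraries alone, a setting chosen after seeing the data, gave -1. With 2 libraries per time these tests cannot pass a threshold and say nothing about stability.

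As log2 enrichment over the genome background, the difference between times in repeat 2 was 0.27 at PDC1 in place of -0.12, and -0.056 at ADH1 in place of 0.35. Both scales use the same summit pileups. They differ only in the background, local or genome, and in the 1 added to pileup and background in the fold. At ADH3 it was 0.26 in place of 0.06, and -0.46 with a 1000 bp promoter, where another peak is read. As ranks, the differences were 5.07, -2.16 and -6.53 percentage points of the list at PDC1, ADH1 and ADH3. Here a positive value is a lower place in the list at 14 d, since rank 1 is the highest fold. No library could be left out of these differences. The excess of ADH1 over ADH3 was 2.26 as enrichment and 0.51 with a 1000 bp promoter, and 2.40 to 2.69 with a library left out. Ranked by −log10 q in place of fold, PDC1 stood at 45.4% of the 16 h repeat 2 list (39.8% by fold), PDC6 at 89.8% (86.0%) and ADH3 at 72.2% of the 14 d repeat 2 list (76.6%). The cause was not tested. The motif search and its alternative were not run. Repeat 1 peaks were missing at scaled pileups above the smallest listed at ADH1, PDC1 and ADH3 (14 d) and the distal ADH3 summit (16 h). The reason for this was not tested.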
